A study of Gossypium hirsutum with 6 samples.

Results

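The gene pairs described here are the A and D copies of upland cotton genes, read in developing fibers. Upland cotton (Gossypium hirsutum) is an allotetraploid that carries an A subgenome and a D subgenome, inherited from a pair of related diploid species, so most genes exist as an A copy and a D copy, called homoeologs. Genes on an A and a D chromosome of the same number were paired where they had the same full Swissprot description and where that description occurred once on each of these chromosomes. This gave 14131 pairs, of which 8531, or 60.4%, had a summed level of at least 5 FPKM (fragments per kilobase of gene model per M counts, A plus D copy, mean of 6 libraries) and were kept. They hold 17062 of the 73622 genes in the deposited table. The pairs were thus selected on their summed level, while the ratio of A to D copy played no part. The pairs nearest the limit were a pseudouridine synthase pair kept at a sum of 5.01 FPKM (Gh_A05G154000 with Gh_D05G170000) and a lysine-specific demethylase JMJ706 pair left out at 4.9998 FPKM (Gh_A08G177600 with Gh_D08G175400).

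Fibers of strain 63 were sampled on day 5 and on day 15 after flowering (days post-anthesis, 5DPA and 15DPA), and the labels give each stage 3 biological replicates. No treatment or transgene is named, and both stages share the strain. Poly(A) RNA of each sample was sequenced as paired ends. Cotton fibers are single cells of the seed coat epidermis that first elongate and later thicken with cellulose, and 15DPA lies in the span of fast elongation. In an allotetraploid the copies of a gene share the same nucleus, so their levels are compared within a library, where sampling and depth act on both copies alike. Expression that leans to one copy is known as homoeolog expression bias, and a bias that differs between stages means that the copies did not follow development in step.

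The libraries held 15.6 to 16.9 M counts, of which 48.5 to 48.9% lay on A chromosomes and 50.1 to 50.5% on D chromosomes, and the pairs took 54.2 to 54.8%. Fiber genes (expansins, fasciclin-like arabinogalactan proteins, tubulins, lipid-transfer proteins and sucrose synthases) summed to 32329 to 43082 FPKM at 5DPA and 53136 to 67839 at 15DPA. Genes of dividing cells (histones, cyclins A and B, replication licensing factors) summed to 8000.4 to 11916 FPKM at 5DPA and 2029 to 3033 at 15DPA, with 121 of 170 tested members lower and 2 higher at 15DPA by edgeR at an adjusted p of 0.05, against 10.4% lower and 13% higher over all 40054 genes tested. The fiber genes had 51 higher and 30 lower of 207 tested, green tissue genes 3 and 18 of 65, seed genes 9 and 2 of 23, seed coat phenolic genes 0 and 1 of 22 and stress genes 15 and 10 of 160. Fewer cells of a type and less RNA per cell cannot be told apart in these bulk samples. Green tissue genes summed to 344 to 449 FPKM and then 218 to 297, seed genes to 573 to 811 and then 661 to 976, seed coat phenolic genes to 2251 to 2920 and then 1216 to 3516, and heat shock, universal stress and wound genes to 5374 to 6069 and then 3904 to 9057. At 0 in each library were 103 of 284 green tissue genes, 45 of 97 seed genes, 2 of 31 seed coat phenolic genes and 28 of 229 stress genes. The part of these lists in the A/D ratios was not tested.

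The A and D copies took nearly equal shares of the total, while most single pairs leaned to one copy. The A copies took 49.7% ± 0.151 of the FPKM of the pairs at 5DPA and 49.6% ± 0.0546 at 15DPA (SD, n = 3 each), and the median log2 A/D of the pairs was −0.024 ± 0.0044 and −0.014 ± 0.0069. By library the median lay between −0.029 and −0.0082. An exact two-sided permutation test of the stages gave p = 0.4 for the share and p = 0.2 for the median, where 0.1 is the smallest p that 3 against 3 libraries allow. The copies were called different by edgeR's quasi-likelihood test, with gene length as an offset, the library as a block and Benjamini-Hochberg adjustment over the 8531 pairs (threshold 0.05). At 5DPA the A copy was higher in 2502 pairs (29.3% of those tested) and the D copy in 2750 (32.2%). At 15DPA the A copy was higher in 2812 pairs (33%) and the D copy in 2948 (34.6%). Which side held more pairs depended on the scaling at 15DPA, where TMM factors over the A and D columns gave 2959 pairs for A against 2776 for D and a median log2 A/D of 0.031.

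**Figure D1:**
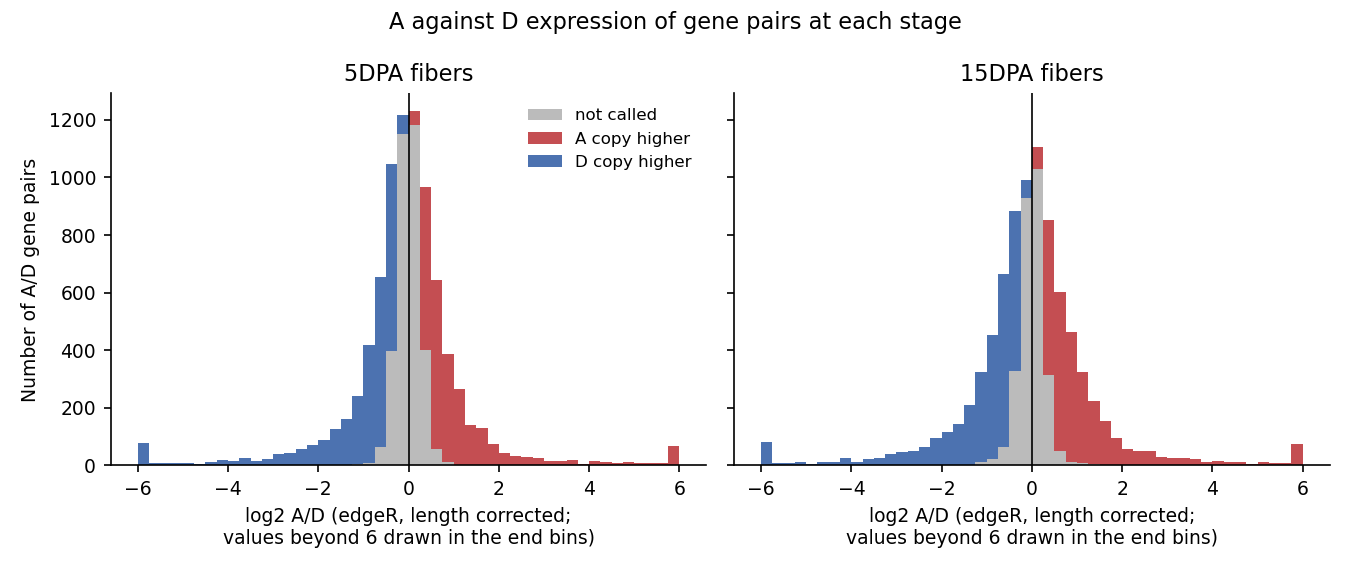
Number of A/D gene pairs (vertical axis) by log2 A/D (horizontal axis, edgeR estimate with length correction, bins of 0.25) in 5DPA and 15DPA fibers, with pairs called for the A copy in red, for the D copy in blue and not called in grey. The bulk is nearly symmetric around 0 at both stages, with 2502 and 2750 called pairs on the A and D side at 5DPA and 2812 and 2948 at 15DPA.

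The typical distance between copies was modest. The median size of log2 A/D, regardless of direction, was 0.489 ± 0.023 at 5DPA and 0.606 ± 0.048 at 15DPA per library, with 0.464 to 0.510 in the 5DPA libraries and 0.551 to 0.641 in the 15DPA libraries. The stage ranges did not overlap (exact permutation p = 0.1, the smallest possible). Reads per pair had a median of 516 ± 27.8 at 5DPA and 431 ± 49.8 at 15DPA, and the library with the smallest size at each stage, replicate 2, also had the most reads per pair of its stage. Among 7200 pairs with at least 100 reads in every library, a limit chosen after seeing the data, the sizes were 0.458 ± 0.023 and 0.559 ± 0.039. A difference of at least 2-fold was called for A in 922 pairs and for D in 1033 at 5DPA, and in 1196 and 1302 at 15DPA. At least 8-fold differences were called in 189 and 218 pairs at 5DPA and in 230 and 264 at 15DPA.

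In 4353 pairs (51.0%) the same copy was called higher at both stages, the A copy in 2084 and the D copy in 2269. Another 820 pairs were called at 5DPA alone and 1328 at 15DPA alone, and 1951 (22.9%) were called at neither stage, which does not show that their copies were equal. Across the 8339 pairs with reads of both copies in every library, Pearson's r of log2 A/D was 0.929 to 0.946 between replicates of 5DPA, 0.869 to 0.937 between those of 15DPA and 0.782 to 0.875 between libraries of different stages. These are correlations across genes, which are not independent replicates, and the copies share each library. The spread of the ratio between replicates was smaller than that of the level, with a median SD of 0.165 for log2 A/D against 0.190 for the log2 level of the A copy at 5DPA, and 0.235 against 0.262 at 15DPA.

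Each of the 4 most abundant pairs leaned to one copy per length, E6 to D and the other 3 to A. Protein E6, an abundant cotton fiber protein of unknown function, had the highest summed level (Gh_A05G145000 at 15550989 to 15552086 on chromosome A05 and Gh_D05G160200 at 14036288 to 14037013 on chromosome D05, in the coordinates of the file, which names no build). Values given in threes are replicates 1, 2 and 3, at 5DPA first and then at 15DPA. Values with ± are means and SD over 3 libraries in FPKM, or edgeR's estimate and SE on the log2 scale. At 5DPA the A copy had 3923, 2981 and 4275 FPKM and the D copy 6727, 5187 and 7381 FPKM. At 15DPA the A copy had 6876, 4565 and 6840.5 FPKM and the D copy 11752, 7892 and 11589 FPKM. The D copy was higher in 6 of 6 libraries although the level of both copies varied widely between them, and log2 A/D stayed at −0.78, −0.80 and −0.79 and then −0.77, −0.79 and −0.76. The edgeR estimate was −0.79 ± 0.033 at 5DPA and −0.77 ± 0.033 at 15DPA (SE, adjusted p = 5.78e-07 and 5.12e-07). The gene models differ in length, 1098 against 726 bases, and the ratio per length carries that difference.

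Snakin-1, a cysteine-rich peptide first known from potato defence, leaned the other way (Gh_A04G144000 with Gh_D04G182700). The A copy had 3994 ± 441 FPKM at 5DPA and 4132 ± 546 at 15DPA, and the D copy 2794 ± 480.1 and 3049 ± 196 (SD, n = 3). The log2 A/D was 0.52 ± 0.074 and 0.43 ± 0.074 by edgeR (adjusted p = 0.000396 and 0.000974). Fasciclin-like arabinogalactan protein 12, a cell surface glycoprotein whose Arabidopsis relatives are tied to secondary walls, also leaned to A (Gh_A09G124800 with Gh_D09G117000, both 732 bases long). Its A copy had 1374, 1179 and 1872 FPKM at 5DPA and 3443, 2251 and 3116 at 15DPA. Its D copy had 969, 822 and 1197 and then 1781, 1192 and 1859. The A copy was higher in each library, and log2 A/D was 0.56 ± 0.056 at 5DPA and 0.87 ± 0.056 at 15DPA. That increase of 0.31 ± 0.079 passed the test by little (edgeR adjusted p = 0.0432), and without any one of 5 of the 6 libraries it did not (adjusted p of 0.0794 to 0.163). It also missed the threshold with the replicate block (0.0791), with DESeq2 (0.0763) and with limma (0.124 and 0.152 at pseudocounts of 1 and 0.1).

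Metallothionein-like protein 2, a metal-binding protein, completes the 4 most abundant pairs (Gh_A01G249700 with Gh_D01G243900). Its A copy had 2861 ± 282 FPKM and then 5308 ± 1287, and its D copy 850.4 ± 141 and then 2133 ± 576. The A copy was 3.36-fold higher at 5DPA and 2.49-fold at 15DPA per length. The direction at 15DPA rests on the gene model lengths: the models are 237 and 620 bases long, and without the length correction log2 A/D at 15DPA was −0.062. The ratio fell by 0.43 on the log2 scale between the stages (edgeR adjusted p = 0.0197, which rose to 0.0727 to 0.0902 without replicate 2 or 3 of 5DPA or replicate 1 of 15DPA, and to 0.0631 and 0.0858 with limma at pseudocounts of 1 and 0.1).

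In the pairs farthest to the A side, the D copy had few reads or none. These pairs were picked for the size of the difference, so the values are a description. A gene named after Arabidopsis DOWNSTREAM OF FLC (Gh_A02G090800 with Gh_D02G092800) had 522, 504 and 532 FPKM from the A copy at 5DPA and 618, 514 and 581 at 15DPA. Its D copy had no read in any of the 6 libraries, so the A copy was at least 2773-fold and 3054-fold higher, taking 3 reads per library as the floor. A MYB119 pair, named after an R2R3-MYB transcription factor, had 37.0, 41.9 and 33.5 and then 27.9, 29.7 and 51.6 FPKM from the A copy and no D read (Gh_A10G033600 with Gh_D10G042300, at least 285-fold and 277-fold). An uncharacterized protein pair (Gh_A12G281500 with Gh_D12G276300) also had no D read against 19.8 ± 2.28 and 26.3 ± 2.10 FPKM from A.

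A STRICTOSIDINE SYNTHASE-LIKE 13 pair and a squalene monooxygenase pair had a few D reads. In the first (Gh_A09G231600 with Gh_D09G222700) the A copy had 19.1 ± 6.59 FPKM at 5DPA and 49.4 ± 8.67 at 15DPA, and the D copy 1, 2 and 4 reads and then 1, 4 and 3 reads. In the second, whose enzyme makes squalene epoxide for sterols (Gh_A02G180100 with Gh_D02G258700), the A copy had 20.5 ± 1.53 and 28.3 ± 1.11 FPKM, and the D copy 0, 2 and 0 and then 0, 5 and 0 reads. This pair does not lie in matching gene order on A02 and D02.

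In the pairs farthest to the D side, picked in the same way, the A copy had few reads or none. Cytosolic sulfotransferase 5, which moves sulfate onto small molecules, had 79.5, 109 and 121 FPKM from the D copy at 5DPA and 71.0, 77.6 and 75.4 at 15DPA, against 4, 6 and 3 and then 0, 4 and 2 reads from A (Gh_A13G103800 with Gh_D13G094300). The GDSL esterase/lipase At3g48460 pair (Gh_A12G210900 with Gh_D12G204600) had 112 ± 16.7 FPKM from D at 5DPA and 257 ± 29.1 at 15DPA, and 0.436 ± 0.132 and 0.339 ± 0.326 from A. The D copy was 258-fold and then 758-fold higher. Its stage change was 1.497 ± 0.21 on the log2 scale (edgeR over all genes, adjusted p = 0.00661). Adenosylhomocysteinase 1, an enzyme of the methyl cycle, had 55.7 ± 12.1 and 82.6 ± 14.4 FPKM from D and 0.182 ± 0.0944 and 0.276 ± 0.186 from A (Gh_A02G023500 with Gh_D02G026900, both 1458 bases long).

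The zinc finger CCCH protein 20 pair had no A read in 6 libraries against 55.3 ± 10.8 and 80.1 ± 24.5 FPKM from D (Gh_A13G221200 with Gh_D13G224300, at least 299.6-fold and 435-fold). A heat shock protein 83 pair, of the HSP90 chaperone family, had 32.7, 22.2 and 31.7 FPKM from D at 5DPA and 25.6, 18.8 and 127 at 15DPA, with reads of the A copy in 1 library alone (Gh_A08G132800 with Gh_D08G131400). Replicate 3 of 15DPA was far above the other libraries for this gene. In all, the A copy had fewer than 3 reads in every library in 41 pairs and the D copy in 38, with summed levels up to 85.1 and 545 FPKM. Of these, 38 and 28 lay in matching gene order, and 22 and 17 had gene models that differed by at most 25% in length.

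The aquaporin PIP1-3 pair had the widest gap among the abundant pairs that the gene lists named. PIP aquaporins carry water across the plasma membrane. The D copy had 1197, 811 and 1023 FPKM at 5DPA and 2485, 1800.1 and 2896 at 15DPA (Gh_A08G208800 with Gh_D08G204400). The A copy had 5, 5 and 2 reads and then 7, 5 and 33 reads, so the D copy was 7165-fold and 4439.7-fold higher. The gene models of A and D are 1755 and 1253 bases long, and how reads that fit both copies were assigned is unknown. The part of either in this gap was not tested. The D copy rose by 1.55 ± 0.30 between the stages (edgeR adjusted p = 0.0138). The tonoplast aquaporin TIP1-1, which carries water across the vacuolar membrane, leaned to A instead (Gh_A01G238700 with Gh_D01G232600). The A copy had 466, 344 and 466 FPKM and then 1559, 1188 and 1536, and its D copy 21.8, 54.8 and 28.0 and then 21.0, 37.3 and 25.2. The A copy rose by 2.05 ± 0.26 (adjusted p = 0.00458) while the D copy's change was −0.036 ± 0.33 (adjusted p = 0.946). The ratio rose by 2.01 ± 0.47 (adjusted p = 0.0358, 0.0812 to 0.121 without replicate 2 or 3 of 5DPA or replicate 1 of 15DPA, and 0.0508 and 0.0763 with limma at pseudocounts of 1 and 0.1).

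Gene lists matched by Swissprot description held 2865 of the pairs. Among 144 pairs of wall matrix genes, which build, loosen or modify pectins and hemicelluloses, the D copy was higher in 68 (47.2%) and the A copy in 35 (24.3%) at 5DPA, and in 66 (45.8%) and 43 (29.9%) at 15DPA. Over all pairs these shares were 32.2% and 29.3%, and then 34.6% and 33%. The median log2 A/D of the list was −0.32 and −0.26, against −0.024 and −0.0094 over all pairs. Of these pairs, 113 had gene models that differed by at most 25% in length, with medians of −0.35 and −0.34. In 58 collinear pairs whose lengths differed by at most 5%, a limit chosen after seeing the data, D led in 26 and A in 16 at 5DPA, and in 22 and 20 at 15DPA. The medians there were −0.20 and −0.070. The ratio rose in 15 pairs of the list and fell in 12, together 18.8% of it, against 9.82% over all pairs.

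**Figure D2:**
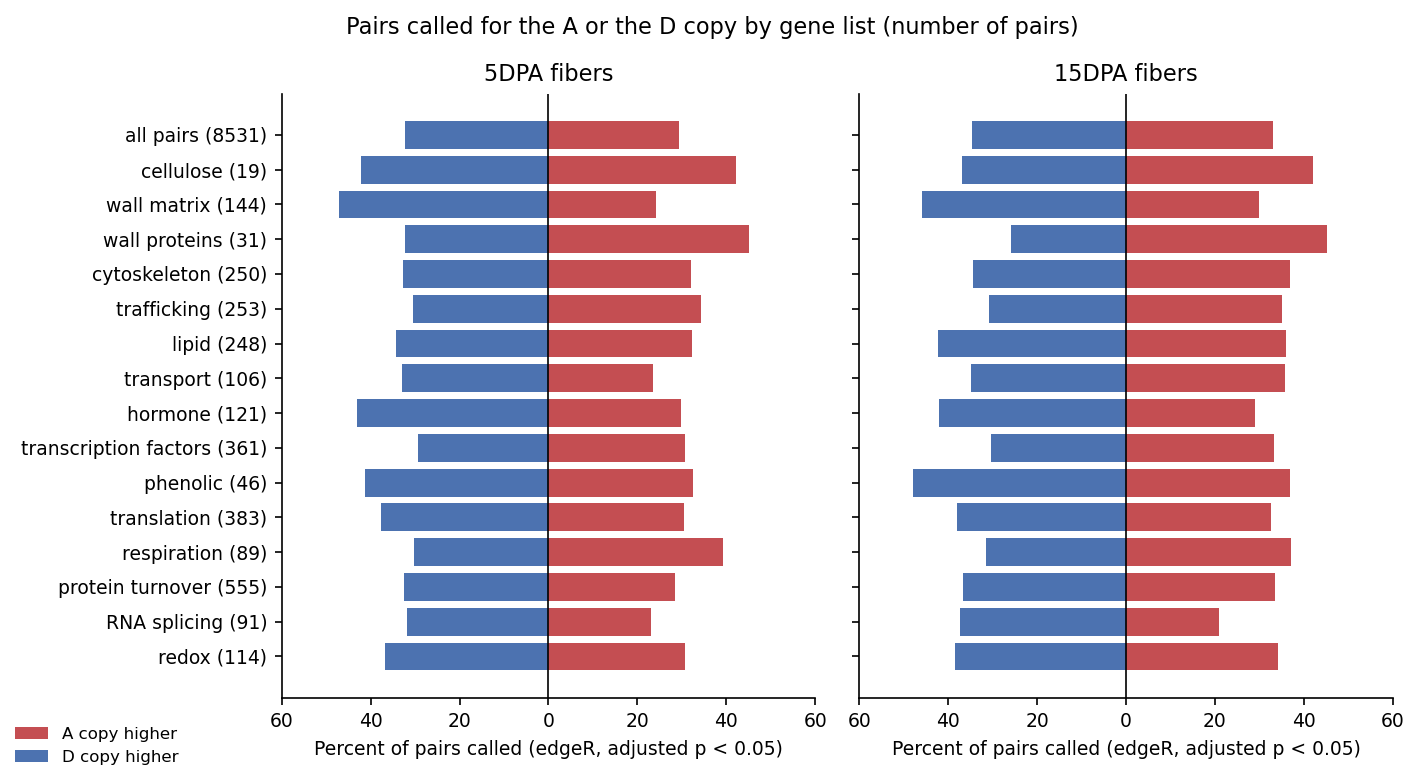
Percent of pairs in each gene list called by edgeR for the A copy (red, to the right of 0) and for the D copy (blue, to the left) at 5DPA and 15DPA, with the number of pairs in parentheses. The wall matrix list reaches 47.2% on the D side at 5DPA against 32.2% for all pairs.

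Both leading wall matrix pairs were xyloglucan endotransglucosylase/hydrolases, enzymes that cut and rejoin xyloglucan chains, and both were led by the D copy. The protein B pair (Gh_A11G064900 at 5710467 to 5712179 on A11 and Gh_D11G064800 at 5430882 to 5432611 on D11) had 584, 641 and 795 FPKM from D at 5DPA and 705, 599.6 and 653 at 15DPA. For the A copy the level was 25.7, 37.7 and 34.5 and then 16.3, 22.1 and 19.3. The D copy was 20.6-fold higher at 5DPA and 33.9-fold at 15DPA, and the D copy led in all 6 libraries. The fall of the ratio by 0.72 passed the test narrowly (edgeR adjusted p = 0.0449) and missed it without any 5DPA library or without replicate 1 of 15DPA (0.0871 to 0.151), and with limma at pseudocounts of 1 and 0.1 (0.0792 and 0.101). In the protein 7 pair (Gh_A11G054000 with Gh_D11G054000) the A copy had 29.2 ± 22.1 and 123 ± 26.6 FPKM and the D copy 405 ± 91.5 and 1099.7 ± 278. Both copies rose, by 2.38 ± 0.53 for A and 1.75 ± 0.32 for D (adjusted p = 0.0202 and 0.0122).

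The cellulose list (19 pairs: cellulose synthase subunits, COBRA proteins, sucrose synthases and others) was split, with the A copy higher in 8 pairs and the D copy in 8 at 5DPA, and in 8 and 7 at 15DPA. These are 42.1% and 42.1%, and then 42.1% and 36.8%. Over all pairs the shares were 29.3% and 32.2%, and then 33% and 34.6%. Sucrose synthase, which makes UDP-glucose from sucrose, had the highest sum of the list (Gh_A05G028400 with Gh_D05G037800). Its A copy had 564, 549.5 and 665 FPKM at 5DPA and its D copy 684, 731 and 768. At 15DPA they had 363, 322 and 338 and 234, 253 and 307. D led at 5DPA and A led at 15DPA in each library, with log2 A/D of −0.30 ± 0.086 and 0.37 ± 0.087 (adjusted p = 0.0157 and 0.00489). The change of 0.67 ± 0.12 (adjusted p = 0.0164) does not rest on the length correction, but the lead of A does: the models are 2382 and 3478 bases long and uncorrected log2 A/D at 15DPA was −0.17. That change missed the threshold without any single 5DPA library (0.05004 to 0.0812) or with limma at a pseudocount of 0.1 (0.0599), and the lead of D at 5DPA did so without replicate 1 or 2 of that stage (0.0563 and 0.105) and with the same limma fit (0.0594). Without replicate 1 of 15DPA the lead of A at 15DPA was 0.24 (0.0331). Endoglucanase 25, a membrane-bound glucanase that Arabidopsis needs for cellulose deposition, leaned to A at 0.64 ± 0.068 and 0.73 ± 0.068 (adjusted p = 8.01e-05 and 2.98e-05). Its A copy had 64.3 ± 9.28 and 91.8 ± 9.27 FPKM and its D copy 41.1 ± 5.14 and 55.3 ± 1.34 (Gh_A06G125000 with Gh_D06G137300).

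Among 31 pairs of wall proteins, which are arabinogalactan, extensin and proline-rich proteins, the A copy was higher in 14 and the D copy in 10 at 5DPA, and in 14 and 8 at 15DPA. These are 45.2% and 32.3%, and then 45.2% and 25.8%. Over all pairs the shares were 29.3% and 32.2%, and then 33% and 34.6%. The median log2 A/D of the list was 0.28 at 5DPA and 0.17 at 15DPA. In 20 pairs whose lengths differed by at most 25%, A led in 9 and D in 6, and then in 9 and 5. The medians of these 20 were 0.12 and 0.17. In 10 collinear pairs whose lengths differed by at most 5%, A led in 4 and D in 5, and then in 4 and 4. The medians of these 10 were −0.89 and −0.11, so the lean to A was not seen there. Proline-rich protein 4 was led by D (Gh_A01G183800 with Gh_D01G182700). The A copy had 88.7, 81.7 and 69.1 FPKM and then 320.3, 345 and 624, and its D copy 519, 399 and 619 and then 1376, 1023 and 888. Both copies rose (adjusted p = 0.00387 for A and 0.0165 for D), and the ratio change of 1.27 ± 0.38 did not pass the test (adjusted p = 0.0728).

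The cytoskeleton list of 250 pairs was near even, with 80 pairs for A and 82 for D at 5DPA (32.0% and 32.8%, against 29.3% and 32.2% over all pairs). At 15DPA the list had 92 and 86 (36.8% and 34.4%, against 33% and 34.6% over all pairs). Its leading pairs were alpha-tubulins, subunits of the microtubules that guide wall deposition, and they leaned in opposite directions. In the tubulin alpha-4 pair (Gh_A05G199500 with Gh_D05G216200) the A copy had 473 ± 50.4 and 742 ± 85.3 FPKM and the D copy 1093 ± 168 and 1695 ± 199. The log2 A/D was −1.20 ± 0.049 and −1.19 ± 0.049. In the tubulin alpha-2 pair (Gh_A04G142400 with Gh_D04G181300) the A copy had 931, 772 and 861 FPKM at 5DPA and 1935, 1501 and 1767 at 15DPA. The D copy had 279.7, 247 and 286 and then 1008, 743 and 929. A led in every library, but D rose more, by 2.02 ± 0.24 against 1.32 ± 0.24, and the ratio fell by 0.69 (edgeR adjusted p = 0.00151). Tubulins belong to a family of similar genes, and single values are uncertain where the authors' counting split reads among members.

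Trafficking genes, which move vesicles between compartments, were called for A in 87 of 253 pairs (34.4%) and for D in 77 (30.4%) at 5DPA. At 15DPA they were called in 89 (35.2%) and 78 (30.8%). Over all pairs the shares were 29.3% and 32.2%, and then 33% and 34.6%. The ratio of trafficking pairs rose in 4 and fell in 12, together 6.32%, against 9.82% over all pairs. Sec61 subunit gamma, of the channel that passes proteins into the endoplasmic reticulum, leaned to D (Gh_A07G255700 with Gh_D07G253600, both 210 bases long), with 113 ± 17.8 and 106 ± 14.9 FPKM from A and 161 ± 13.6 and 142 ± 20.05 from D. ADP-ribosylation factor 2, a small GTPase of vesicle budding, leaned to A (Gh_A01G181200 with Gh_D01G173800), with 103 ± 11.8 and 171 ± 19.4 FPKM from A and 80.9 ± 9.53 and 146 ± 24.4 from D, and both copies rose (adjusted p = 0.0133 and 0.0128).

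The lipid list of 248 pairs had 80 pairs for A (32.3%) and 85 for D (34.3%) at 5DPA, and 89 (35.9%) and 105 (42.3%) at 15DPA. Over all pairs the shares were 29.3% and 32.2%, and then 33% and 34.6%. The ratio in the lipid list rose in 18 pairs and fell in 23, together 16.5%, against 9.82% over all pairs. Non-specific lipid-transfer protein 3, a small secreted protein that binds lipids, was the most abundant (Gh_A09G236500 with Gh_D09G228000). At 5DPA the A copy had 2433, 1559 and 1907 FPKM and the D copy 354, 237 and 260.0 FPKM. At 15DPA the A copy had 2371, 1896 and 2957 FPKM and the D copy 1084, 846 and 1806 FPKM. The A copy led in each library, yet the D copy rose by 2.45 ± 0.36 (adjusted p = 0.00684) and the A copy's change was 0.60 ± 0.29 (adjusted p = 0.167). The log2 A/D fell from 2.79 ± 0.091 to 1.00 ± 0.086, a change of −1.79 ± 0.12 (adjusted p = 0.000405). The GPI-anchored lipid transfer protein 1 pair (Gh_A04G163800 with Gh_D04G208200) leaned to D by 1.14-fold at 5DPA and 1.33-fold at 15DPA, the first of which turned to 0.037 on the log2 scale without the length correction and missed the threshold without replicate 1 or 3 of 5DPA (adjusted p = 0.0570 and 0.0862) and with limma (0.0696 and 0.0846 at pseudocounts of 1 and 0.1).

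Of 106 transport pairs, 25 were called for A and 35 for D at 5DPA (23.6% and 33.0%), and 38 and 37 at 15DPA (35.8% and 34.9%). Of 121 hormone pairs, 36 were called for A and 52 for D at 5DPA, and 35 and 51 at 15DPA, with medians of −0.16 and −0.27. These are 29.8% and 43.0% of the list at 5DPA and 28.9% and 42.1% at 15DPA, against 29.3% and 32.2% and then 33% and 34.6% over all pairs, whose medians were −0.024 and −0.0094. In the 46 collinear hormone pairs whose lengths differed by at most 5%, the counts were 15 and 19, and 13 and 16, with medians of −0.030 and −0.23. The hormone medians were −0.084 and −0.27 with lengths within 25%, and −0.040 and −0.17 without the length correction. The leading hormone pair was Gibberellin-regulated protein 4 (Gh_A09G018000 with Gh_D09G016100, 673 and 321 bases long). Its log2 A/D was −0.40, −0.70 and −0.35 in the 5DPA libraries and −0.29, −0.64 and −3.32 in the 15DPA libraries, so replicate 3 of 15DPA stood apart. It did not pass the test at 5DPA (−0.48 ± 0.45, adjusted p = 0.376), but passed it there without replicate 3 of 15DPA (−0.48, 0.00147). Its call for D at 15DPA (−1.32 ± 0.49, 0.0407) was lost without any single 5DPA library (0.0597 to 0.0663) and without the length correction, where it was −0.25 (0.676). Without replicate 3 of 15DPA the estimate at 15DPA was −0.47 (0.00589). The 46 phenolic pairs (phenylpropanoid and flavonoid enzymes, laccases) had the widest median size of log2 A/D among the 15 functional lists, 1.11 and 1.28 against 0.472 and 0.577 over all pairs. The ratio changed in 23.9% of these 46, 5 up and 6 down, against 9.82% over all pairs. This share was 24.6% in the 57 fiber gene pairs, 18.8% in the wall matrix list and 6.32% in the trafficking list. The leading phenolic pair, dihydroflavonol 4-reductase of flavonoid synthesis, had 452 ± 26.2 and 558 ± 224 FPKM from A and 338 ± 36.2 and 340.2 ± 178 from D (Gh_A05G175900 with Gh_D05G193100). Without the length correction its log2 A/D at 5DPA was −0.019.

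The shares over all pairs, 29.3% for A and 32.2% for D at 5DPA and 33% and 34.6% at 15DPA, stand beside the remaining lists. Transcription factors were called for A in 111 of 361 pairs and for D in 106 at 5DPA, and in 120 and 110 at 15DPA. Translation genes were called for A in 117 of 383 pairs and for D in 144, and then in 125 and 146. Respiration genes were called for A in 35 of 89 pairs and for D in 27, and then in 33 and 28. Protein turnover genes were called for A in 158 of 555 pairs and for D in 180, and then in 186 and 203, and redox genes in 35 and 42 of 114, and then in 39 and 44. RNA splicing genes were called for A in 21 of 91 pairs and for D in 29, and then in 19 and 34, and their ratio changed in 4.4%, against 9.82% over all pairs. In these lists the TFB5 pair of the general factor TFIIH leaned to A by 3.37-fold and 3.27-fold (Gh_A12G247400 with Gh_D12G242100, both 213 bases long). Malate dehydrogenase leaned to D by 1.74-fold and 1.90-fold (Gh_A02G046400 with Gh_D02G051200). Glutathione S-transferase U17 leaned to D by 2.95-fold and 3.16-fold (Gh_A11G210000 with Gh_D11G243100). For 40S ribosomal protein S28, polyubiquitin and small nuclear ribonucleoprotein F, the direction turned without the length correction at 5DPA, with log2 A/D of 0.76, 1.14 and 0.074 against −0.50, −0.11 and −0.34.

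The chromosomes differed little from one another. The median log2 A/D at 5DPA ran from −0.066 on chromosome pair 01 (667 pairs) to 0.092 on 03 (312 pairs). More pairs were called for D than for A on 10 of the 13 chromosome pairs at 5DPA and on 8 at 15DPA, and on 8 and 3 with TMM factors over the A and D columns. The fewest pairs came from 02, 03 and 04, with 293, 312 and 324, and the most from 11, with 957. The rule joins chromosomes of the same number only, so copies on chromosomes of different numbers were not paired. Some pairs may also not be true homoeologs. On 02, 03 and 04, 95.6%, 95.2% and 97.2% of the pairs lay in matching gene order, the lowest shares. The part of the rule in these counts and medians was not tested. The ratio changed in 6.8% of the pairs on 08 and in 13.5% of those on 03. Neighbouring pairs shared little of their lean. Among pairs in matching gene order, the log2 A/D of each pair was set against that of the next pair along the A chromosome. Spearman's rho was 0.040 at 5DPA and 0.034 at 15DPA across 8420 such neighbours, given as a description.

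**Figure D3:**
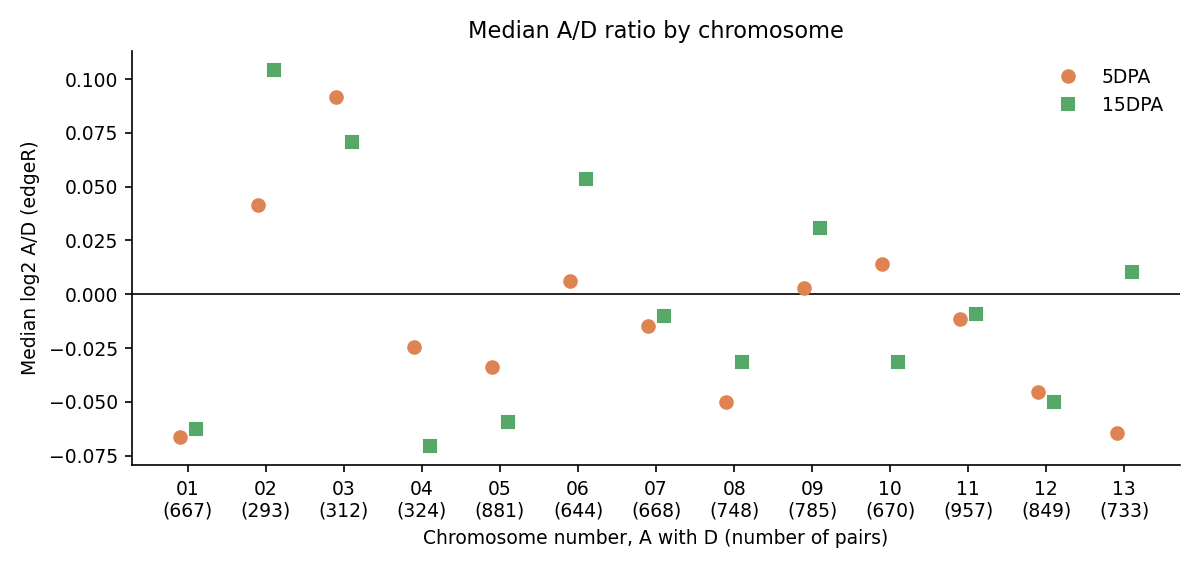
Median log2 A/D (vertical axis, edgeR estimate) of the pairs on each chromosome number (horizontal axis, with the number of pairs), with circles for 5DPA and squares for 15DPA. The medians run from −0.066 to 0.092 at 5DPA and from −0.071 to 0.10 at 15DPA.

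Gene model length moved with the lean where the models differed by more than 25%. Across the 8339 pairs with reads of both copies in every library, Pearson's r of log2 A/D with the log2 length ratio was −0.069. In 1062 pairs whose A model was more than 25% longer than the D model, the median log2 A/D was −0.35 at 5DPA and −0.31 at 15DPA, and 48.3% were called for D at 5DPA. In 1203 pairs whose D model was longer by as much, the medians were 0.29 and 0.30, and 45.6% were called for A. In 693 pairs of equal length the medians were −0.039 and −0.037, with 183 pairs for A and 208 for D at 5DPA. The part of the gene models in the single ratios was not tested. In gene order, 8433 pairs lay in matching positions on A and D, and the other 98 had a median size of log2 A/D of 2.07 at 5DPA against 0.468 in the collinear ones. Abundance moved with the calls too: in 2182 pairs of 5 to 10 FPKM the ratio changed in 7.2%, and in 674 pairs of 100 FPKM and above in 15.9%.

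The A/D ratio itself differed between the stages in 838 pairs (edgeR's interaction term, adjusted p under 0.05), with 432 ratios higher at 15DPA (5.06% of those tested) and 406 lower (4.76%). Of these, 592 were farther from equal copies at 15DPA and 246 nearer. The change was at least 2-fold in 384 pairs and at least 4-fold in 98, and at an unadjusted p under 0.05 there were 2443 pairs. With TMM factors over the A and D columns the counts were 476 and 358. They moved with the library left out, being 189 and 166 without replicate 1 of 5DPA, 92 and 90 without replicate 2, and 139 and 147 without replicate 3. They were 111 and 111 without replicate 1 of 15DPA, 520 and 467 without replicate 2, and 617 and 576 without replicate 3. Full reversals of the leading copy were rare, with 35 pairs going from A to D and 44 from D to A.

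**Figure D4:**
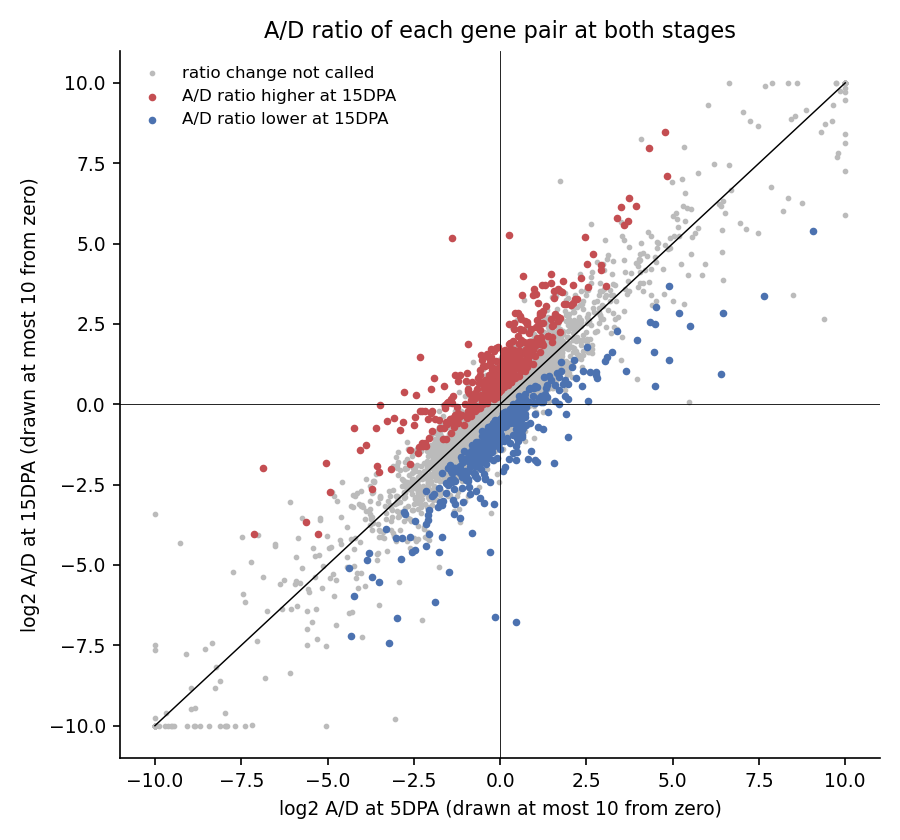
The log2 A/D of each of the 8531 pairs at 5DPA (horizontal axis) and 15DPA (vertical axis), drawn at most 10 from 0, with pairs whose ratio was called higher at 15DPA in red, lower in blue and others in grey. Most pairs follow the diagonal line of equal ratios, and 432 red and 406 blue points lie off it.

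In 459 of the pairs with a changed ratio one copy was called for a change between the stages and the other was tested but not called. By the fit of 40054 genes over both stages, in which 5206 genes (13%) were higher and 4151 (10.4%) lower at 15DPA, the A copy alone was called in 229 of the 838 pairs and the D copy alone in 230. Both copies moved in the same direction in 99 pairs and in opposite directions in 11, neither passed the test in 241, and a copy fell below the filter of 1 FPKM in 28. Over the 8199 pairs with both copies tested, the A copy alone was called higher in 506 and lower in 382. The D copy alone was called higher in 533 and lower in 419, and neither passed the test in 5223. Both rose in 700 and both fell in 425. The counts of both rising and both falling rest on the scaling of the libraries, and with library totals in place of TMM they were 304 and 952. They also rest on single libraries and were 124 and 68 without replicate 2 of 5DPA, 124 and 63 without replicate 1 of 15DPA, 288 and 170 without replicate 1 of 5DPA and 289 and 122 without replicate 3 of 5DPA. Of the 52 copies in named pairs that were called for a change between the stages, 20 kept the call without any one library and 32 lost it, all 32 of these without replicate 1 of 15DPA and 28 without replicate 2 of 5DPA.

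The largest changes were taken among called pairs with a sum of at least 10 FPKM, gene models that differed by at most 25% in length and stages that did not overlap in log2 A/D. In 4 of the 6 largest rises of this kind the A copy was called higher at 15DPA, and in 1 the D copy was called lower. These pairs were picked for the size of the change, so the values describe it. Pectinesterase/pectinesterase inhibitor PPE8B, which takes methyl esters off pectin, is the clearest case (Gh_A07G018000 at 1969770 to 1972523 on A07 and Gh_D07G019300 at 1890755 to 1893574 on D07). For the A copy the level was 7.94, 3.66 and 6.25 FPKM at 5DPA and 73.9, 68.0 and 57.6 at 15DPA. Its D copy had 63.6, 53.2 and 79.6 and then 73.8, 66.2 and 61.2. The A copy was below D in each 5DPA library and the copies overlapped at 15DPA, where log2 A/D was −0.017 ± 0.13. The ratio rose by 3.47 ± 0.19 (edgeR adjusted p = 0.000302), and the A copy rose by 3.77 ± 0.31 over the stages (adjusted p = 0.00164).

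A blue copper protein, one of the plant phytocyanins, showed a like pattern (Gh_A13G226900 with Gh_D13G230700). Its A copy had 8.24, 7.33 and 5.87 FPKM and then 26.5, 31.1 and 59.0, and its D copy 55.5, 39.8 and 51.6 and then 26.6, 33.2 and 24.4. The ratio rose by 3.16 ± 0.37 (adjusted p = 0.00364). Transmembrane 9 superfamily member 7, of an endomembrane protein family, rose from 0.887, 0.689 and 0.839 FPKM to 7.04, 4.85 and 6.11 in the A copy, and D had 26.9 ± 2.92 and 21.4 ± 4.75 (Gh_A05G122000 with Gh_D05G134400, ratio change 3.24 ± 0.24, adjusted p = 0.000686). The D copy stayed above the A copy in every library.

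Cytochrome P450 86A22, named after a petunia fatty acid omega-hydroxylase, was nearly unread at 5DPA (Gh_A12G254700 with Gh_D12G249000). The A copy had 2, 6 and 13 reads at 5DPA and 29.7, 16.6 and 23.9 FPKM at 15DPA, and the D copy 3, 25 and 22 reads and then 17, 35 and 10 reads. The change of 6.55 ± 0.74 is the largest of the rises named here (adjusted p = 0.00323) and starts from these few reads. Phenylalanine ammonia-lyase, the first enzyme of the phenylpropanoid path, also rests on few A reads, 5, 3 and 0 and then 16, 42 and 4, against 7.65, 18.8 and 6.83 and then 9.15, 15.9 and 2.40 FPKM from D (Gh_A04G091600 with Gh_D04G129200). Its rise of 3.09 ± 0.58 (adjusted p = 0.0176) missed the threshold without replicate 2 of 5DPA or replicate 1 of 15DPA (0.119 and 0.0501), and was 0.90 (0.246) with limma at a pseudocount of 1. The rise of Cytochrome P450 86A22 was 4.21 in that limma fit (adjusted p = 0.00262). In the pair of BAG family regulator 6, a co-chaperone, the D copy fell from 8.68, 7.92 and 8.03 FPKM to 2.25, 1.93 and 1.41, while A had 4.42, 3.94 and 4.63 and then 6.12, 4.68 and 10.6 (Gh_A08G147800 with Gh_D08G146800). The D copy's change was −1.84 ± 0.20 (edgeR adjusted p = 0.00289), and that of the A copy, 1.04 ± 0.33, missed the threshold narrowly (0.0565). The ratio rose by 2.79 ± 0.37 (adjusted p = 0.00573) and the leading copy turned from D to A, a turn whose 5DPA side was lost without replicate 1 or 2 of 5DPA (adjusted p = 0.0570 and 0.0635).

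In 3 of the 6 largest falls under the same limits the D copy was called higher at 15DPA, and in 1 the A copy was called lower. Polygalacturonase 1 beta-like protein 3, related to the non-catalytic subunit of a tomato fruit polygalacturonase, had 5.40, 8.44 and 6.45 FPKM from D at 5DPA and 69.8, 43.3 and 67.5 at 15DPA (Gh_A01G156200 with Gh_D01G151600). The A copy had 0.895, 2.61 and 2.10 and then 0.563, 1.31 and 0.586. The D copy rose by 3.47 ± 0.29 (adjusted p = 0.00164), and the ratio fell by 4.26 ± 0.48 (adjusted p = 0.00313). D led in all 6 libraries. Cyclin-U2-2, of the cyclins that bind cyclin-dependent kinases, went from 0.302, 0.142 and 0.143 to 9.56, 7.997 and 9.05 FPKM in D and from 5.90, 3.59 and 4.07 to 16.4, 11.6 and 11.9 in A (Gh_A08G158800 with Gh_D08G158200, ratio change −3.91 ± 0.32, adjusted p = 0.00109). Serine carboxypeptidase-like 40 went from 0.179, 0.235 and 0.0676 to 6.41, 4.08 and 12.6 FPKM in D and from 5.63, 4.31 and 4.79 to 19.1, 16.2 and 20.04 in A (Gh_A08G163700 with Gh_D08G162700, −3.51 ± 0.53, 0.00897). In both of these pairs the A and the D copy each rose over the stages. The D copies rest on few reads at 5DPA, 4, 2 and 2 for Cyclin-U2-2 and 5, 7 and 2 for Serine carboxypeptidase-like 40. With limma at a pseudocount of 1 the changes were −1.67 (adjusted p = 0.00426) and −1.07 (0.0623, no longer called).

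The other 3 falls named by size came with a lower A copy or with few reads. Trihelix transcription factor ASR3, a repressor in Arabidopsis immunity, fell from 4.89, 5.87 and 6.15 FPKM to 0.178, 0.684 and 0.371 in A (edgeR adjusted p = 0.00406), while D had 9.67, 8.46 and 11.5 and then 8.82, 9.76 and 2.31 (Gh_A10G037300 with Gh_D10G047800). Its ratio changed by −3.21 ± 0.47 (adjusted p = 0.00835), but by −1.63 (0.0613) and −2.88 (0.0503) with limma at pseudocounts of 1 and 0.1. Trichome birefringence-like 42, of a family that acetylates wall polysaccharides, had 70.9, 72.5 and 95.0 and then 34.8, 45.6 and 15.6 FPKM from A, and 2, 2 and 4 and then 9, 34 and 3 reads from D (Gh_A01G045700 with Gh_D01G042100, −3.69 ± 0.57, 0.00921, and −1.95 with limma at a pseudocount of 1, 0.00572). Gibberellin-regulated protein 3 varied most between replicates, with 101, 13.4 and 15.1 and then 5.196, 10.1 and 0.817 FPKM from A and 1.71, 0.501 and 0.404 and then 1.53, 1.28 and 0.107 from D (Gh_A09G190300 with Gh_D09G181700). Its ratio change of −3.08 ± 0.49 (adjusted p = 0.0106) missed the threshold without replicate 1 of either stage (0.0647 and 0.0501), and replicate 1 of 5DPA stood far above the other libraries for the A copy.

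**Figure D5:**
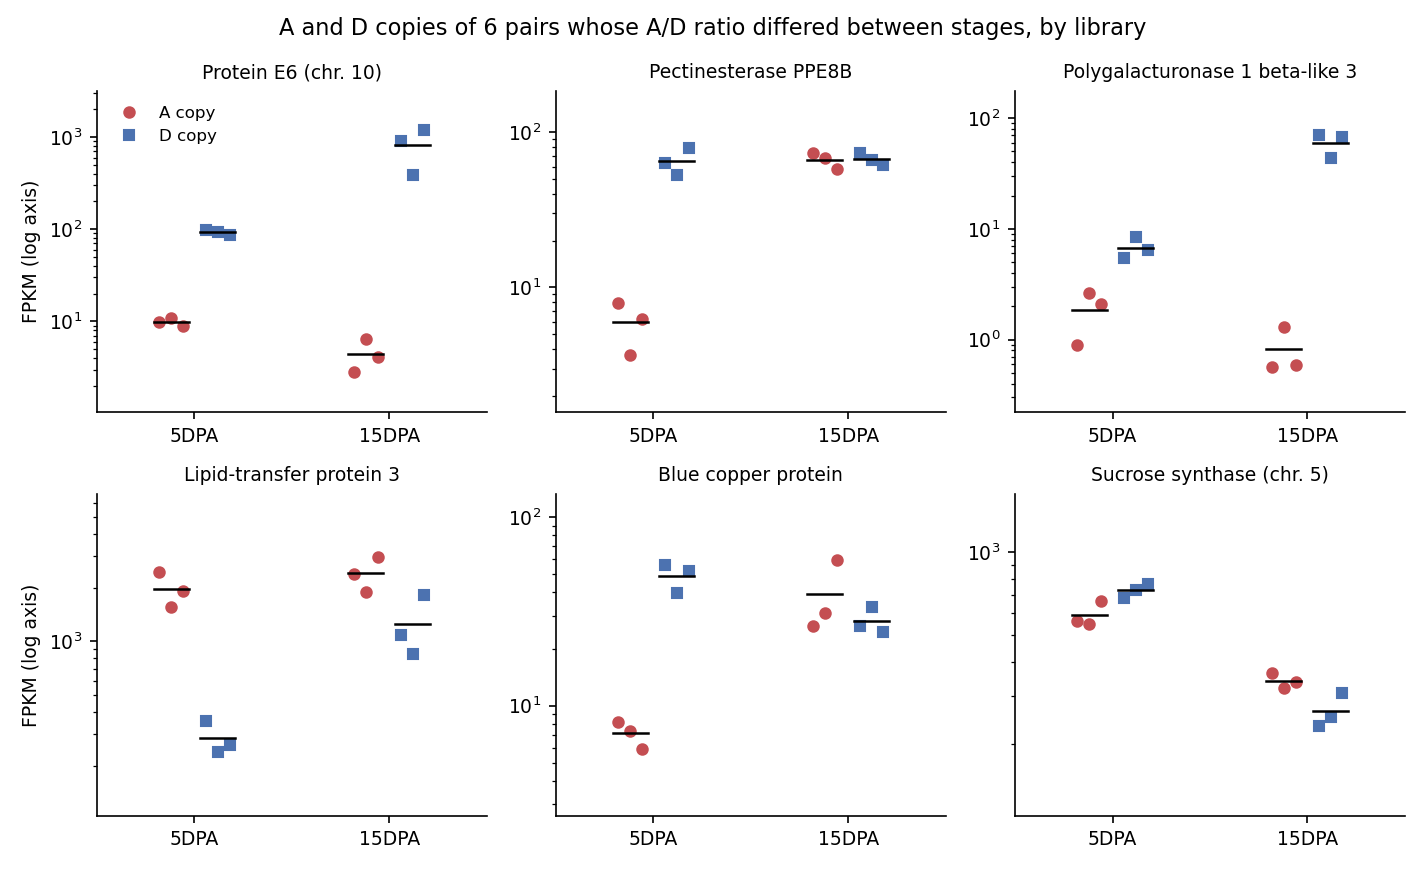
FPKM (log axis) of the A copy (red circles) and the D copy (blue squares) of 6 pairs in each of the 3 libraries at 5DPA and 15DPA, with the mean as a black bar. The A copy of PPE8B lies at 3.66 to 7.94 FPKM at 5DPA and meets the D copy at 15DPA, while the D copy of the chromosome 10 E6 pair stands above its A copy at both stages and rises away from it.

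In 11 pairs the copies were called in opposite directions between the stages, 6 with A up and D down and 5 the reverse. A further E6 pair, on chromosome 10, was the most abundant of them (Gh_A10G019900 at 1769533 to 1770851 on A10 and Gh_D10G028800 at 2492462 to 2493301 on D10). Its D copy had 99.1, 92.1 and 86.1 FPKM at 5DPA and 909, 392 and 1184 at 15DPA, and its A copy 9.81, 10.9 and 9.01 and then 2.80, 6.36 and 4.08. The D copy rose by 3.49 ± 0.44 (adjusted p = 0.00458) and the A copy fell by 0.89 (adjusted p = 0.0436). The D lead grew from 9.34-fold to 188-fold, unlike in the chromosome 5 pair of E6, whose ratio change was 0.014 ± 0.046 (adjusted p = 0.873).

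Acyl carrier protein 1, which holds the growing chain in plastid fatty acid synthesis, showed the same order at a smaller size (Gh_A13G115200 with Gh_D13G118200). For the A copy the level was 40.8, 53.5 and 46.0 FPKM and then 21.5, 25.8 and 17.6, and its D copy 179, 204 and 203 and then 382, 315 and 353. The ratio changed by −1.96 ± 0.18 (adjusted p = 0.00146). In the GDSL esterase/lipase At5g03610 pair the A copy led and the D copy fell (Gh_A04G077200 with Gh_D04G116800). A had 197, 185 and 260.3 and then 328, 268 and 310.4 FPKM, and D 14.6, 15.3 and 17.5 and then 2.55, 6.25 and 2.16. The NDR1/HIN1-like protein 13 pair, of a membrane protein family known from defence, had 12.5, 12.3 and 13.6 and then 15.6, 16.3 and 15.6 FPKM from A and 5.42, 5.03 and 5.19 and then 0.698, 2.07 and 0.925 from D (Gh_A07G021800 with Gh_D07G022900). Their ratios rose by 2.67 ± 0.38 and 2.41 ± 0.34 (adjusted p = 0.00755 and 0.00743). The opposite directions rest on calls of single copies that did not all hold. These calls use TMM scaling in the fit of all genes. The counts of pairs with both copies higher or lower moved with that scaling, from 700 and 425 to 304 and 952 with library totals. Without replicate 1 of 15DPA the call was lost for the A copies of E6, acyl carrier protein 1, GDSL esterase/lipase At5g03610 and NDR1/HIN1-like protein 13 and for the D copies of the last of these and of the GDSL pair. The A copy of E6 lost its call without any one of 5 libraries, with adjusted p up to 0.133. The ratio changes of the 4 pairs stayed under the threshold with TMM factors over the A and D columns (adjusted p of 0.00113 to 0.00753).

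The background lists held few pairs. Over all pairs, 29.3% were called for A and 32.2% for D at 5DPA, and 33% and 34.6% at 15DPA. Dividing cell genes gave 41 pairs, of which 9 (22.0%) were called for A and 9 for D at 5DPA and 10 (24.4%) and 10 at 15DPA. The ratio of these genes rose in 2 pairs and fell in 0, together 4.88%, against 9.82% over all pairs. Their leading pair, a core histone H2B, fell in both copies, from 359.8 ± 77.2 to 105 ± 29.1 FPKM in A and from 306 ± 51.4 to 104 ± 25.7 in D (Gh_A03G051300 with Gh_D03G145600). Its log2 A/D was 0.22 ± 0.059 at 5DPA, −0.50 without the length correction, a lead that missed the threshold without replicate 1 or 2 of 5DPA (adjusted p = 0.0532 and 0.0727), and its change of −0.23 ± 0.084 did not pass the test (adjusted p = 0.123). Fiber genes gave 57 pairs, of which 22 (38.6%) were called for A and 22 for D at each stage. The ratio of the fiber genes rose in 5 pairs and fell in 9, together 24.6%. Green tissue genes gave 11 pairs, seed genes 2, seed coat phenolic genes 7 and stress genes 39. Photosystem I subunit II rose in A (16.5, 8.81 and 14.9 and then 29.1, 18.8 and 27.1 FPKM) and had 10.3, 7.71 and 10.5 and then 9.84, 8.85 and 12.2 in D (Gh_A02G037100 with Gh_D02G042900). Its ratio change of 0.80 ± 0.20 (adjusted p = 0.0441) missed the threshold without any one of the 5DPA libraries or replicate 1 of 15DPA (0.0754 to 0.150), with DESeq2 (0.0859) and with limma at a pseudocount of 0.1 (0.0616). The basic 7S globulin 2 pair leaned to D by 1.97-fold and 2.44-fold. A heat shock protein 83 pair on chromosome 12 had 9.69, 5.58 and 194 FPKM from A and 67.3, 46.4 and 236 from D at 15DPA, with replicate 3 far above the others.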

How the data were processed

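Poly(A) RNA of fibers at 5DPA and 15DPA was sequenced in 3 libraries per stage, grouped by the sample titles. Per the file headers, the deposited table gives whole-number read counts and FPKM values per gene, and the deposited FPKM values equal count over gene length and library total (largest relative difference 6.92e-06). Per the submitters' processing notes HISAT and StringTie were used; their versions, the build, how reads were counted and whether strand was used were not given in the sources used here. How reads that fit both copies of a gene were assigned is unknown, so A and D values of near-identical copies are uncertain, as are overlapping and antisense genes. One read on 1 kilobase is worth 0.059 to 0.064 FPKM, and the floors cover counting error only. The SD values carry the spread between the libraries of a stage. The SE is the size of edgeR's log2 estimate over the square root of its F statistic. It rests on a spread estimated over both stages together, so it is not the spread of a single stage. Gene lengths are those of the table, and 2 empty lines were left out.

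Counts of the A and D copies were fitted with edgeR 4.0.16 (glmQLFit and glmQLFTest, R 4.3.3) over 8531 pairs as 12 columns, with the library as a block, length and library total as offsets, an A effect per stage and their difference. Tests were two-sided with Benjamini-Hochberg adjustment over all pairs and a threshold of 0.05. The stage change of each copy came from a second edgeR fit with TMM over 40054 genes with a mean of at least 1 FPKM. The common coefficient of variation was 12.0% for the pairs and 28.0% for the genes. The scripts were tested on simulated data. The labels do not say that a replicate number marks a shared plant or day, so the main fit did not pair samples by number. Alternatives were DESeq2 1.42.0, limma 3.58.1 on log2(FPKM + 1) and log2(FPKM + 0.1), other filters, lengths, scaling and left-out libraries. Fold changes of copies near 0 use a floor of 3 reads per library.

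The pairs and 21 gene lists were chosen with earlier results of these data known. Pairs were named by rule: the 4 of highest sum, the 5 of largest A/D ratio in each direction (called at both stages, sum of at least 20 FPKM, lengths that differ by at most 25%), the 6 of largest ratio change in each direction (called, no overlap of stages, sum of at least 10 FPKM, lengths that differ by at most 25%), 4 with opposite copies, and the most abundant of each list. No sequences are shown, since no sequence table of these genes was used here.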

Additional observations from a re-analysis of the deposited data

Results flagged for a closer look

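Of the pairs named in the text, 24 had an A/D ratio that differed between 5DPA and 15DPA by edgeR's interaction test (adjusted p under 0.05 over 8531 pairs). Each value is the change in log2 A/D from 5DPA to 15DPA, and pairs are given by their A copy. The ratio rose by 6.55 for Cytochrome P450 86A22 (Gh_A12G254700), 3.47 for Pectinesterase/pectinesterase inhibitor PPE8B (Gh_A07G018000), 3.24 for Transmembrane 9 superfamily member 7 (Gh_A05G122000) and 3.16 for Blue copper protein (Gh_A13G226900). It also rose by 3.09 for Phenylalanine ammonia-lyase (Gh_A04G091600), 2.79 for BAG family molecular chaperone regulator 6 (Gh_A08G147800), 2.67 for GDSL esterase/lipase At5g03610 (Gh_A04G077200) and 2.41 for NDR1/HIN1-like protein 13 (Gh_A07G021800), and by smaller amounts in the rest: 2.01 for Aquaporin TIP1-1 (Gh_A01G238700), 0.80 for Photosystem I reaction center subunit II (Gh_A02G037100), 0.67 for Sucrose synthase (Gh_A05G028400) and 0.31 for Fasciclin-like arabinogalactan protein 12 (Gh_A09G124800). The ratio changed downward by −4.26 for Polygalacturonase 1 beta-like protein 3 (Gh_A01G156200), −4.20 for protein E6 (Gh_A10G019900), −3.91 for Cyclin-U2-2 (Gh_A08G158800) and −3.69 for protein trichome birefringence-like 42 (Gh_A01G045700). Further falls were −3.51 for Serine carboxypeptidase-like 40 (Gh_A08G163700), −3.21 for Trihelix transcription factor ASR3 (Gh_A10G037300), −3.08 for Gibberellin-regulated protein 3 (Gh_A09G190300) and −1.96 for Acyl carrier protein 1 (Gh_A13G115200). The remaining ones were −1.79 for Non-specific lipid-transfer protein 3 (Gh_A09G236500), −0.72 for xyloglucan endotransglucosylase/hydrolase protein B (Gh_A11G064900), −0.69 for Tubulin alpha-2 chain (Gh_A04G142400) and −0.43 for Metallothionein-like protein 2 (Gh_A01G249700). Of the 24, 10 missed the threshold under at least 1 alternative. No library left the group range here in a way that could be tested, since groups of 3 are too small for a test of single outlying values. In replicate 3 of 15DPA, 2 copies had 0 reads where every other library had at least 20, and 2 copies had at least 20 reads where every other library had at most 1; replicate 1 of 15DPA had 1 copy of the first kind, and none of these belongs to a named pair.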

How the results depend on the processing

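Of the values that answer a comparison, 131 of 186 alternatives stayed within 1.5 times the reported count or, for medians and shares, within 1 SD of the libraries. Restricting to sums of at least 20 FPKM, which leaves fewer pairs, gave 1248 pairs for A and 1337 for D at 5DPA, 1367 and 1406 at 15DPA, and 266 ratio rises and 262 falls. Collinear pairs with lengths within 5%, added after seeing the data, gave 946, 1039, 1059, 1141, 185 and 200. With limma and a pseudocount of 0.1 the ratio rises and falls were 284 and 260. Leaving out 1 library gave 92 to 617 rises and 90 to 576 falls, 124 to 833 pairs with both copies higher and 63 to 581 with both lower. Both copies were higher in 304 and lower in 952 with library totals, and in 257 and 1044 with limma at a pseudocount of 1; the cause was not tested beyond the scaling itself.

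The median log2 A/D at 5DPA was −0.031 without a filter beyond 10 reads, −0.032 at a sum of at least 1 FPKM, −0.016 at 20, −0.031 with lengths within 25%, −0.038 without the length correction and −0.0092 with TMM over A and D columns. At 15DPA it was −0.024 at 1 FPKM, −0.0060 at 20, −0.026 within 25%, −0.025 within 5%, −0.032 without length correction and 0.031 with TMM. The A share was 50.01% at 5DPA and 50.14% at 15DPA within 25%, 49.3% and 49.5% within 5%, 48.98% and 48.9% without length correction, 49.94% and 50.4% with TMM, and 49.9% at 15DPA with each copy at 1 FPKM or more. The median size at 5DPA was 0.458 in the deep pairs.

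Without the length correction the direction turned for metallothionein 2 at 15DPA (−0.062), sucrose synthase at 15DPA (−0.17), GPI-anchored lipid transfer protein 1 at 5DPA (0.037), dihydroflavonol 4-reductase at 5DPA (−0.019), S28 at both stages (−0.50 and −0.66), polyubiquitin at both (−0.11 and −0.30), ribonucleoprotein F at 5DPA (−0.34) and H2B at 5DPA (−0.50), by the construction of the ratio. The PIP1-3 change was −0.86 with limma at a pseudocount of 1, where the A copy is near 0. Of the named pairs, 9 of 51 calls at 5DPA, 6 of 51 at 15DPA and 10 of 24 ratio changes were lost or turned in direction under at least 1 alternative.

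The replicate block gave 2431 pairs for A and 2660 for D at 5DPA, 2760 and 2880 at 15DPA, 384 ratio rises and 349 falls, and 666 and 412 pairs with both copies higher or lower. Same-numbered libraries correlated in their deviations of log2 A/D by −0.13, 0.18 and 0.0097, and not every library correlated best with its own number. Depth limits the ratios of copies with few reads.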
